A study of Danio rerio with 12 samples.

Results

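Primitive blood of the zebrafish arises in stripes of lateral mesoderm on both sides of the embryo. Its anterior part gives mainly myeloid cells, which later become macrophages and neutrophils, and its posterior part gives mainly erythroid cells, the first red cells. *gata1a* drives the erythroid programme and *spi1b*, which encodes Pu.1, the myeloid one, and each of the 2 factors holds back the programme of the other. The set described here holds 10 genes of these lineages: the erythroid genes *gata1a*, *alas2* and *hemgn*, the myeloid regulators *spi1b* and *cebpa*, the GFI repressors *gfi1aa* and *gfi1b*, the core-binding factor subunits *runx1* and *cbfb*, and *drl* (draculin), a zinc finger gene of early lateral and blood-forming mesoderm. All 10 were measured, by 15 of the 75212 probe sets of the array, which together name 20713 genes. A probe set was taken for a member where its platform symbol, updated to the current one, was that gene alone. The single probe set of *drl* carries 2 platform symbols, and the other one is an older name of *drl*.

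RNA came from pieces of Tg(hsp70:HA-*dmrt2a*) embryos, which carry *dmrt2a* with an HA tag under the heat-shock promoter hsp70, and of wildtype control embryos. Embryos were dissected into Region 1, which held the somites and the tissues next to them, and Region 2, which held the tailbud, the presomitic mesoderm and the LRO (the Left-Right Organiser). The 4 groups were thus Region 1 transgenic, Region 1 control, Region 2 transgenic and Region 2 control, with 3 arrays each. Transgenic and control embryos alike received 39 °C for 30 min at bud-stage, went on at 28 °C and were taken 2 h to 2 h 30 min later, at 3 to 4 somites, so there was no group without heat. The transgene is a single insertion in a line of Tübingen background, and the promoter acts in all tissues that are heated, not only in blood. Each array received RNA of 100 pieces, so a lower signal from fewer blood precursors and one from less RNA per cell cannot be told apart.

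The values are log2 signals, on which a difference of 1 is a 2-fold change. Pairs of arrays of 1 group correlated at 0.988 to 0.992 over all probe sets. The median of an array lay at 3.47 to 3.49 in Region 1 and 3.29 to 3.32 in Region 2, and centring each array moves a difference between regions downwards by 0.18 in control and 0.17 in transgenic pieces. By the tailbud markers the pieces matched their labels: of 9 measured tailbud and presomitic genes, all 9 were lower in Region 1 than in Region 2 control pieces. The somite markers were mixed: of 9 measured somite and muscle genes, 5 were higher and 2 lower in Region 1 control pieces. The signal of *dmrt2a* was 8.74, 8.75 and 8.74 in Region 1 transgenic pieces, against 8.45, 8.36 and 8.35 in Region 1 controls. It was 8.75, 8.70 and 8.84 in Region 2 transgenic pieces, against 7.36, 7.41 and 7.33 in Region 2 controls. The groups did not overlap in either region, and the difference was 0.35 (limma adjusted p = 0.0991) in Region 1 and 1.40 (limma adjusted p = 0.00352) in Region 2. The share of all probe sets whose arrays separate in this way was not counted, so non-overlap is a description here and below.

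**Figure D1:**
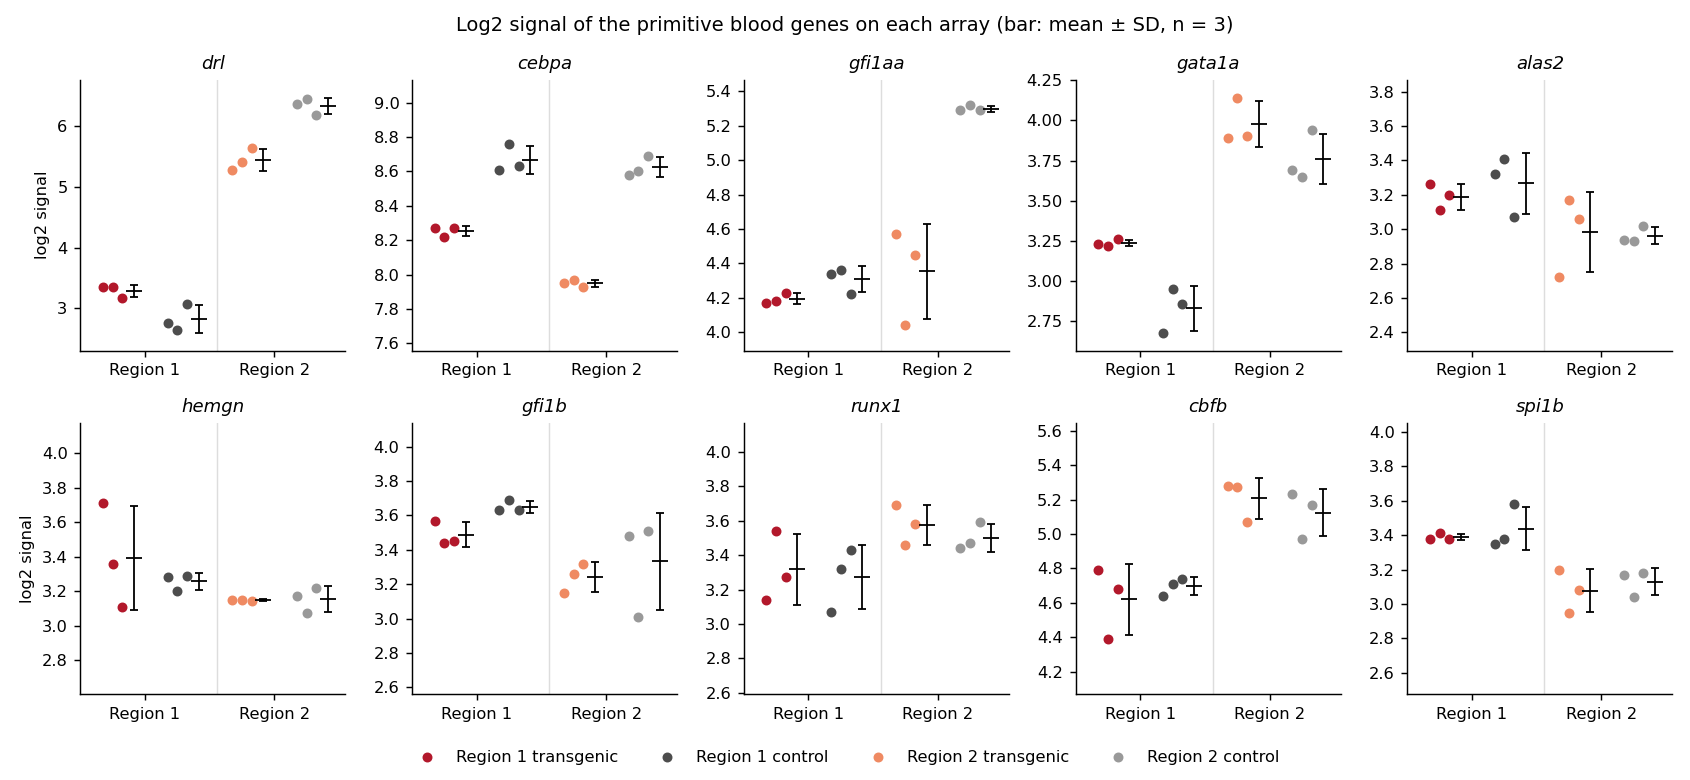
Log2 signal of each of the 10 genes on the 12 arrays, 1 panel per gene, with Region 1 on the left and Region 2 on the right of each panel and transgenic pieces left of control pieces. Points are arrays and bars are the mean ± SD (n = 3). The transgenic arrays lie below the control arrays of Region 2 for *drl*, *cebpa* and *gfi1aa*, and the vertical scale differs between panels.

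Of the 10 genes, *cebpa* and *drl* fell in Region 2 of transgenic embryos, by 0.67 and 0.89 on the log2 scale, and *gfi1aa* lay 0.95 lower there without passing the threshold. No gene of the set passed it in Region 1. A gene was called where the limma p, adjusted over all 75212 probe sets, was under 0.05. In Region 2, 2 of 10 genes were called lower and 0 higher, against a background of 0.4% lower and 0.0678% higher over all probe sets. In Region 1, 0 of 10 were called, where 0.344% of all probe sets were lower and 0.162% higher, and 0 by the test that the methods name. Over all named genes 0.874% were lower and 0.14% higher in Region 2, and 0.642% and 0.314% in Region 1. The members were chosen with earlier results of these data known, so these counts do not test the set. An unadjusted limma p under 0.05 was found for 4 of 10 in Region 1 (*gata1a* and *drl* above 0, *cebpa* and *gfi1b* below), where 12.5% of all probe sets had one, and for 3 of 10 in Region 2 (*cebpa*, *drl* and *gfi1aa*, all below 0), where 10.8% had one. The median difference over the 10 genes was -0.06 in Region 1 and -0.03 in Region 2, beside 0.012 and -0.00072 over all named genes.

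**Figure D2:**
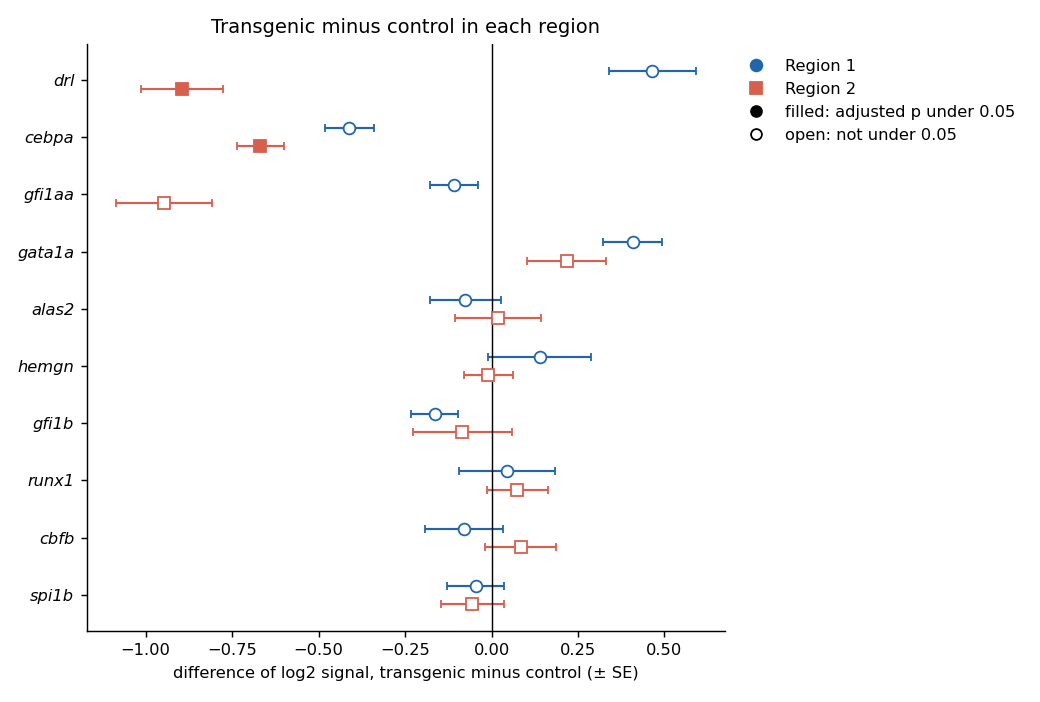
Difference of log2 signal, transgenic minus control, for the 10 genes in Region 1 (circles) and Region 2 (squares), with bars of ± SE from limma (n = 3 against 3 arrays). Filled marks have an adjusted p under 0.05, and these are *drl* and *cebpa* in Region 2. *drl* lies at 0.47 in Region 1 and at -0.89 in Region 2.

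*drl* was the only member whose transgenic effect, transgenic minus control, differed between the regions past the threshold. In zebrafish it marks the lateral mesoderm that forms blood, vessels and heart, and it belongs to a cluster of closely related zinc finger genes. Its signal was 5.28, 5.42 and 5.64 in Region 2 transgenic pieces, against 6.37, 6.45 and 6.19 in Region 2 controls. Every transgenic array thus lay below every control array, and the fold change was -1.86 (log2 -0.89, SE 0.118, limma adjusted p = 0.044). In Region 1 the signal was 3.34, 3.35 and 3.17 in transgenic pieces, against 2.75, 2.64 and 3.07 in controls. There the arrays again did not overlap, but the transgenic arrays were the higher ones (log2 0.47, SE 0.125, limma adjusted p = 0.215). The *drl* signal of Region 1 was dim, below the median probe set of the array. Its mean percentile was 46.77 in transgenic and 37.05 in control pieces, against 75.82 and 84.08 in Region 2. The effect in Region 1 minus the effect in Region 2 was 1.36 (SE 0.18, limma adjusted p = 0.018). This made 1 of 10 genes called, where 0.191% of all probe sets and 0.391% of all named genes were called either way. The call in Region 2 was lost without each of the 6 arrays in turn (limma adjusted p = 0.0828 to 0.195), and that of the difference between regions held in 4 of 12 such fits (log2 1.27 to 1.49, limma adjusted p = 0.0133 to 0.0657). Such fits called fewer probe sets of any kind: 16 to 78 in place of 352 in Region 2, and 41 to 71 in place of 144 for the difference. The difference between regions was not called with the replicate number as a block (limma adjusted p = 0.065), nor with the 2 regions of each genotype and number as a block, a fit added after seeing the data (limma adjusted p = 0.219). The 4 fits that kept the call left out Region 1 control replicate 2 or 3, Region 2 transgenic replicate 3 or Region 2 control replicate 3.

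The order of the *drl* signal over the groups was Region 2 control, Region 2 transgenic, Region 1 transgenic and Region 1 control, with means of 6.34, 5.44, 3.29 and 2.82. Neighbours in this order differed past the threshold except the last pair. *drll.3*, a *drl*-like gene of the same cluster, was measured by a probe set of its own. It averaged 5.19 in Region 2 transgenic pieces and 4.98 in Region 2 controls (limma adjusted p = 0.558), and 5.98 in Region 1 transgenic pieces and 5.71 in Region 1 controls (limma adjusted p = 0.46). Its control pieces were higher in Region 1 than in Region 2 by 0.73, where those of *drl* were lower by 3.52. The other *drl*-like genes of the cluster, *drll.1* and *drll.2*, share probe sets and got no value of their own, and whether the *drl* probe set also takes up their RNA was not tested.

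*cebpa* encodes a C/EBP factor of myeloid differentiation that also acts in other tissues such as liver and fat. Its transgenic arrays lay below its control arrays in both regions. In Region 2 the signal was 7.95, 7.97 and 7.93 in transgenic pieces, against 8.58, 8.60 and 8.69 in controls, a fold change of -1.59 (log2 -0.67, SE 0.067, limma adjusted p = 0.0205). In Region 1 it was 8.27, 8.22 and 8.27 in transgenic pieces, against 8.61, 8.76 and 8.63 in controls, a fold change of -1.33 (log2 -0.41, SE 0.071, limma adjusted p = 0.0868). The groups did not overlap in either region, and the difference between the 2 effects was 0.26 (limma adjusted p = 0.385). Another probe set of *cebpa* holds the same 12 values. The third, of weaker signal, differed by -0.60 in Region 2 (limma adjusted p = 0.0296) and by -0.40 in Region 1 (limma adjusted p = 0.209). The call in Region 2 was lost without each of the 6 arrays in turn (log2 -0.69 to -0.64, limma adjusted p = 0.0884 to 0.113), and Region 1 passed the threshold when all 12 arrays were fitted together (limma adjusted p = 0.00872).

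*gfi1aa* and *gfi1b* encode zinc finger repressors that act in blood, and in zebrafish both serve the primitive erythroid cells. The *gfi1aa* signal was 4.57, 4.04 and 4.45 in Region 2 transgenic pieces, against 5.29, 5.32 and 5.29 in Region 2 controls. All 3 transgenic arrays lay below the controls, and they spread far more (SD 0.275, against 0.0195 in controls). The fold change was -1.93, the largest of the set within a region, but it missed the threshold (log2 -0.95, SE 0.139, limma adjusted p = 0.0593). It passed with all 12 arrays in the fit (limma adjusted p = 0.0016). In Region 1 the signal was 4.17, 4.18 and 4.23 in transgenic pieces, against 4.34, 4.36 and 4.22 in controls, and the arrays overlapped (log2 -0.11, limma adjusted p = 0.594). The difference of 0.84 between the 2 effects did not pass (limma adjusted p = 0.0867). *gfi1b* had 3.57, 3.44 and 3.45 in Region 1 transgenic pieces, against 3.63, 3.69 and 3.63 in controls, which did not overlap (log2 -0.16, limma adjusted p = 0.398). In Region 2 its arrays overlapped, and 1 control array, at 3.01, lay below all transgenic arrays.

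Of the erythroid genes none passed the test. *gata1a* had 3.23, 3.22 and 3.26 in Region 1 transgenic pieces, against 2.68, 2.95 and 2.86 in controls. The transgenic arrays were all higher (log2 0.41, SE 0.0859, limma adjusted p = 0.138), and the call was made where only probe sets with 1 symbol were tested (limma adjusted p = 0.0403). In Region 2 the *gata1a* arrays overlapped, with 3.89, 4.14 and 3.90 in transgenic pieces and 3.69, 3.65 and 3.94 in controls (log2 0.22, limma adjusted p = 0.571). The other 2 probe sets of *gata1a*, both of weaker mean signal over all arrays, overlapped between transgenic and control arrays in both regions. Their differences lay between -0.06 and 0.17. In Region 1 the brighter of these 2 was not dim beside the probe set that stood for *gata1a*. Its means were 3.18 in transgenic and 3.02 in control pieces, against 3.24 and 2.83. It differed there by 0.17 (limma adjusted p = 0.565), so the higher *gata1a* signal of Region 1 rests on 1 probe set. *alas2*, which makes the first enzyme of haem synthesis in red cells, differed by -0.08 in Region 1 and 0.02 in Region 2. *hemgn*, which codes for the erythroid factor Hemogen, differed by 0.14 in Region 1 and -0.0092 in Region 2. Its Region 1 transgenic arrays spread from 3.11 to 3.71, with the Region 1 controls between 3.2 and 3.29.

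The myeloid master regulator *spi1b* and the core-binding factor subunits showed no difference that stood out from the spread of their arrays. *spi1b* had 3.38, 3.41 and 3.38 in Region 1 transgenic pieces, against 3.35, 3.38 and 3.58 in controls (log2 -0.05, SE 0.0823). In Region 2 it had 3.2, 2.95 and 3.08 in transgenic pieces, against 3.17, 3.04 and 3.18 in controls (log2 -0.06, SE 0.0907). *runx1*, whose product binds DNA and is needed for blood stem cells later on, differed by 0.05 (SE 0.138) in Region 1 and 0.07 (SE 0.0876) in Region 2. *cbfb*, whose product binds Runx proteins and not DNA itself, differed by -0.08 (SE 0.113) in Region 1 and 0.08 (SE 0.102) in Region 2. The limma adjusted p of these 3 genes lay between 0.827 and 0.929. Of the 10 genes, 6 lay below the median probe set of the array in Region 1 transgenic as in Region 1 control pieces. In Region 2 it was 4 of 10 in transgenic and 3 of 10 in control pieces. A change in so dim a probe set can be smaller on the array than in the RNA, and spot background was not assessed.

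The levels of the set were also compared between the regions, within each genotype. In control pieces 4 of 10 genes were lower in Region 1 than in Region 2 (*drl*, *gfi1aa*, *gata1a* and *cbfb*) and 1 was higher (*spi1b*), where 8.68% of all probe sets were lower and 19.0% higher. Of all named genes 11.7% were lower and 26.0% higher there, or 37.7% either way. In transgenic pieces 3 of 10 were lower (*drl*, *gata1a* and *cbfb*) and 2 higher (*cebpa* and *spi1b*), where 7.77% of all probe sets were lower and 18.8% higher. The greatest difference was that of *drl*, with log2 -3.52 in control pieces (limma adjusted p = 1.18e-08) and -2.16 in transgenic pieces. *gata1a* was lower in Region 1 by 0.93 in control pieces (limma adjusted p = 7.5e-05) and by 0.74 in transgenic pieces, on its brightest probe set. A second *gata1a* probe set was higher in Region 1 control pieces by 0.48 (limma adjusted p = 0.00158) and in Region 1 transgenic pieces by 0.61, so the probe sets of this gene disagree on the region.

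*gfi1aa* was lower in Region 1 by 1.0 in control pieces (limma adjusted p = 9.58e-05), where the 3 arrays of each region did not overlap. In transgenic pieces the same difference was -0.16 (limma adjusted p = 0.347), and the arrays of the regions overlapped. Without Region 2 transgenic replicate 2, the lowest of its group, *gfi1aa* passed there too (limma adjusted p = 0.0125), and so did the difference of its effects between regions (limma adjusted p = 0.0487). *cbfb* was lower in Region 1 by 0.42 in control pieces (limma adjusted p = 0.016) and by 0.59 in transgenic pieces (limma adjusted p = 0.00273). *spi1b* was higher in Region 1 by 0.30 in control pieces (limma adjusted p = 0.0221) and by 0.31 in transgenic pieces (limma adjusted p = 0.0199). The *spi1b* calls depend on the scaling: with each array centred on its median *spi1b* differed by 0.12 and 0.14 with no call. They were also lost without Region 1 control replicate 3 or Region 2 control replicate 2 in control pieces, and without Region 1 transgenic replicate 2 or 3 or Region 2 transgenic replicate 2 in transgenic pieces (limma adjusted p up to 0.0823). The *cbfb* call in control pieces was lost without Region 1 control replicate 1 or Region 2 control replicate 1 or 3 (limma adjusted p = 0.0517 to 0.0579). *cebpa* was higher by 0.30 in transgenic pieces (limma adjusted p = 0.00454) and by 0.05 in control pieces (limma adjusted p = 0.625), and with centring it was 0.13 and -0.14, with no call. Its probe set of weaker signal was higher in Region 1 control pieces by 0.36 (limma adjusted p = 0.0114), where the arrays did not overlap. In transgenic pieces that probe set was higher by 0.56 (limma adjusted p = 0.000953). The probe sets of *cebpa* thus disagree on whether control pieces differ. Each gene called lower kept its call with centring, with *drl* at -3.70 and *gata1a* at -1.11 in control pieces, and *runx1* joined them at -0.41 in control pieces (limma adjusted p = 0.0242).

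**Figure D3:**
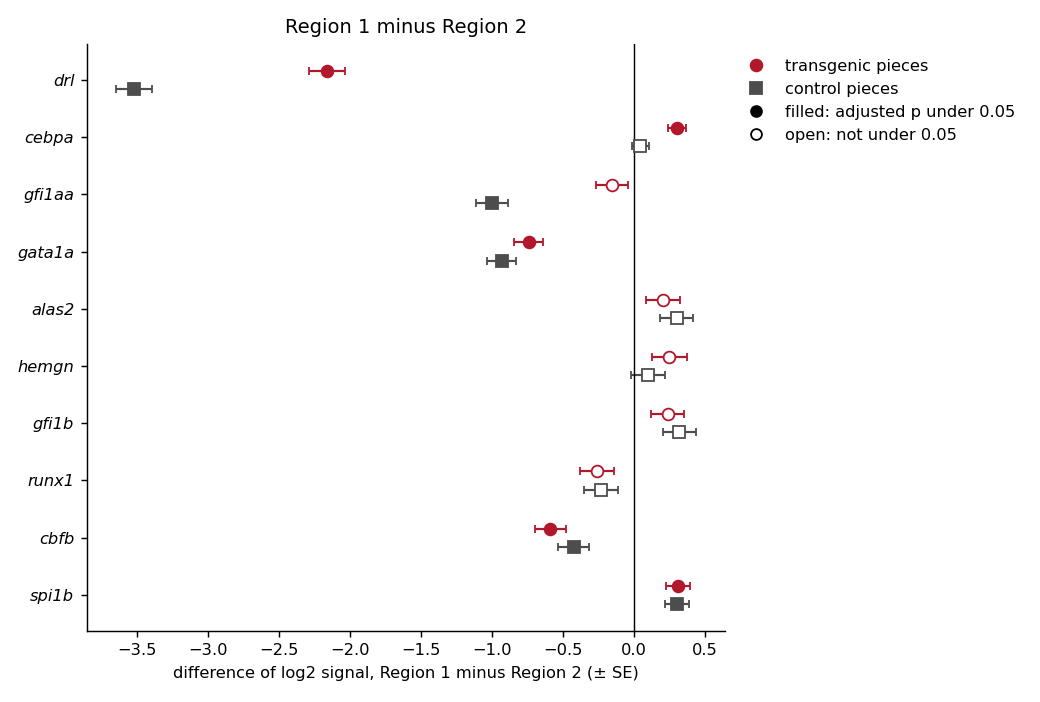
Difference of log2 signal, Region 1 minus Region 2, for the 10 genes in transgenic pieces (circles) and control pieces (squares), with bars of ± SE from limma over all 12 arrays. Filled marks have an adjusted p under 0.05. *drl* lies at -2.16 in transgenic and -3.52 in control pieces, and *gfi1aa* at -0.16 in transgenic and -1.0 in control pieces.

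The genes whose 12 values were most like those of 4 members are given as a description. All 12 points share the regions, so a gene with a strong difference between regions resembles every other such gene. *drl* was most like *lmo2* (Pearson's r = 0.996), a partner of Tal1 in blood and vessel precursors, then *mcamb* (r = 0.991) and *kiaa0513* (r = 0.99). *cebpa* was most like *acsl4a* (r = 0.985), *large2* (r = 0.98) and *fabp2* (r = 0.976). The closest genes to *gata1a* were *nop53* (r = 0.982), *sult6b1* (r = 0.98) and *gfpt1* (r = 0.979), and those to *spi1b* were *kifap3b* (r = 0.959), *rab12* (r = 0.959) and *etaa1b* (r = 0.957).

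Genes that act beside the members in blood formation were taken from 7 lists, with 131 of 144 genes measured. Over all named genes, 0.642% were called lower and 0.314% higher in Region 1, and 0.874% and 0.14% in Region 2. An unadjusted limma p under 0.05 was found for 12.5% of all probe sets in Region 1 and 10.8% in Region 2. These shares stand beside the counts of all lists below. The lists were chosen with earlier results of these data known, so the counts do not test them. Primers for *etv2*, *tal1* and *osr1* are among those the paper gives for its dissected pieces. By quantitative PCR the paper found *etv2* lower with the transgene in the pieces that held somites, and higher there after knockdown of *dmrt2a*. It names *etv2* among the genes downstream of Dmrt2a. Its text states that the genes selected for PCR held up, save *ctslb* in the somite pieces, without naming *tal1* or *osr1* there. Of 22 measured genes of the haemangioblast and angioblast, the shared precursors of blood and vessels, 2 fell and 0 rose in each region. These were *etv2*, which starts the vessel and part of the blood programme, and *tal1*, which is needed for all primitive blood. *etv2* had 4.09, 4.19 and 4.18 in Region 1 transgenic pieces, against 6.14, 6.27 and 6.29 in controls, and 4.35, 4.14 and 3.92 in Region 2 transgenic pieces, against 7.01, 7.16 and 7.23 in controls. *tal1* had 5.50, 5.68 and 5.68 in Region 1 transgenic pieces, against 6.14, 6.32 and 6.26 in controls. It had 6.22, 6.35 and 6.47 in Region 2 transgenic pieces, against 7.66, 7.64 and 7.64 in controls. No array of these 2 genes overlapped between transgenic and control pieces of a region. The *tal1* call in Region 1 was lost without each of the 6 arrays (limma adjusted p = 0.126 to 0.18), and that in Region 2 without transgenic replicate 2 (limma adjusted p = 0.0603) or control replicate 3 (limma adjusted p = 0.0565). The *etv2* calls held without each array. The median of the 22 genes was -0.06 in both regions.

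*lmo2* resembled *drl* in that its arrays differed in opposite directions. It averaged 5.99 in Region 1 transgenic pieces and 5.78 in Region 1 controls, and 6.88 in Region 2 transgenic pieces and 7.29 in Region 2 controls. Neither difference passed the test by itself (limma adjusted p = 0.344 and 0.0905), while the difference between them did (log2 0.61, limma adjusted p = 0.0379). That call was lost without each of the 12 arrays in turn (limma adjusted p = 0.0667 to 0.109). It was also lost with the replicate number as a block (limma adjusted p = 0.0865). The resemblance comes from the same 12 values that placed *lmo2* nearest to *drl* above.

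**Figure D4:**
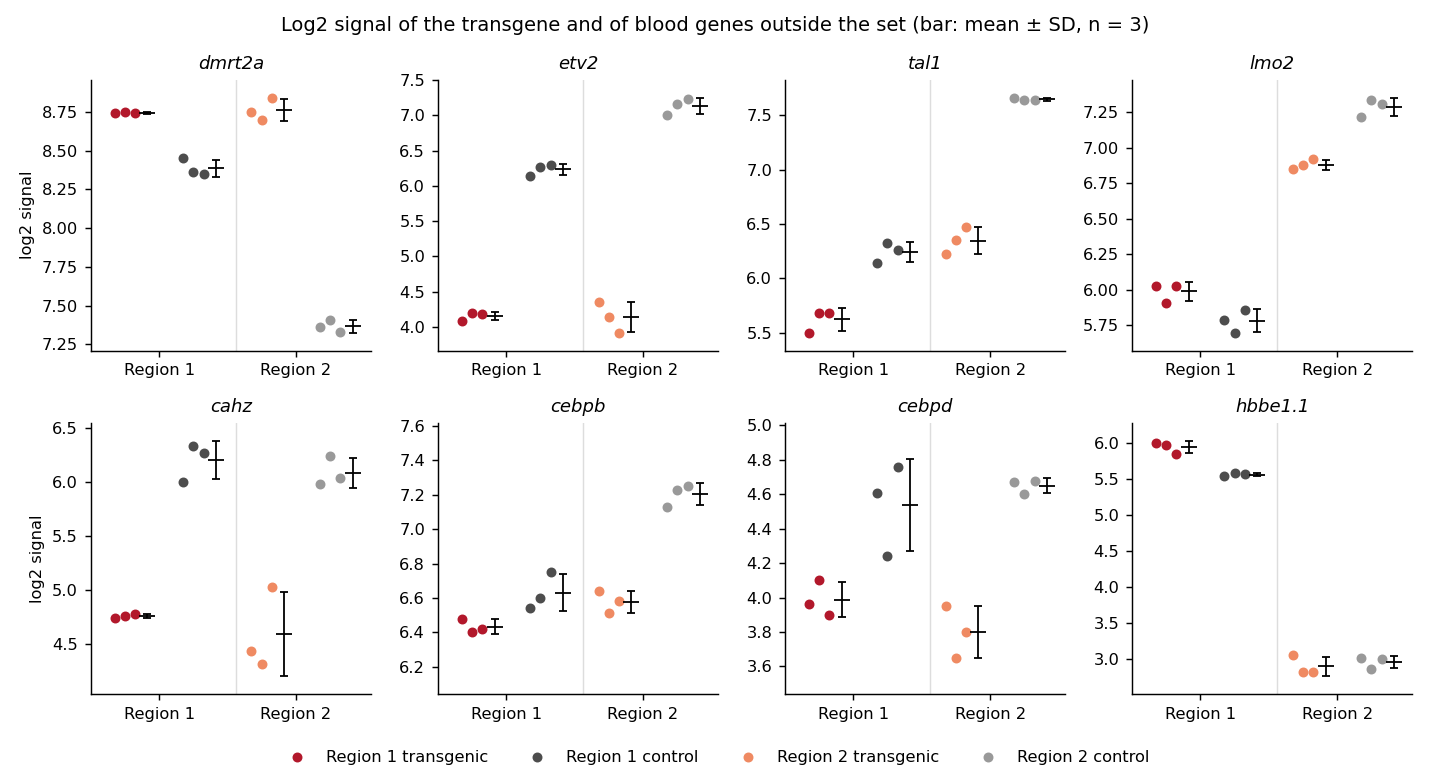
Log2 signal of *dmrt2a* and of 7 blood and vessel genes outside the set on the 12 arrays, with transgenic pieces left of control pieces in each region. Points are arrays and bars are the mean ± SD (n = 3). *etv2* and *tal1* lie lower on the transgenic than on the control arrays of both regions, and *hbbe1.1* differs between the regions.

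Of 26 measured myeloid genes, 2 fell and 0 rose in Region 2, and both encode C/EBP factors, like *cebpa*. The list also holds the C/EBP genes *cebpg* and *cebp1*, which were not among the genes called, so the fall is not one of the whole family. *cebpb* had 6.64, 6.51 and 6.58 in Region 2 transgenic pieces, against 7.13, 7.23 and 7.25 in controls (log2 -0.63, limma adjusted p = 0.0305). *cebpd* had 3.95, 3.65 and 3.80 in Region 2 transgenic pieces, against 4.67, 4.60 and 4.68 in controls (log2 -0.85, limma adjusted p = 0.0244). In Region 1 they differed by -0.20 and -0.55 with no call, and 0 of the 26 genes were called there (without the adjustment, 1 above 0 and 2 below 0 had p under 0.05). Both calls in Region 2 were lost without each of the 6 arrays in turn (limma adjusted p = 0.0989 to 0.156 for *cebpb* and 0.0703 to 0.133 for *cebpd*). The median of the list was -0.06 in Region 1 and -0.05 in Region 2.

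Of 29 measured genes of red cells and haem synthesis, only *cahz* was called in either region. It encodes a carbonic anhydrase of red cells and is an early erythroid marker in zebrafish. It had 4.74, 4.76 and 4.78 in Region 1 transgenic pieces, against 6.0, 6.33 and 6.27 in controls (log2 -1.44, limma adjusted p = 0.0072). In Region 2 it had 4.43, 4.31 and 5.03 in transgenic pieces, against 5.98, 6.24 and 6.03 in controls (log2 -1.49, limma adjusted p = 0.0438). The arrays overlapped in neither region, although the Region 1 call held only without control replicate 1 or 2 and the Region 2 call only without transgenic replicate 3, of 6 such fits each (limma adjusted p up to 0.0671 and 0.168). The embryonic globin gene *hbbe1.1* was not called in either region. It averaged 5.95 in Region 1 transgenic pieces and 5.57 in Region 1 controls, and 2.90 in Region 2 transgenic pieces and 2.95 in Region 2 controls. It was thus higher in Region 1 than in Region 2 control pieces by 2.61 (limma adjusted p = 3.35e-09), the opposite direction to the brightest probe set of *gata1a*. The globin genes are a family of near copies, so this probe set may take up more than 1 of them. The median of the list was -0.01 in Region 1 and 0.03 in Region 2.

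The remaining lists gave few calls. Of 13 measured partners of core-binding factor and the GFI proteins, and of 12 measured genes of later blood stem cells and lymphoid cells, 0 were called in either region (medians of 0.08 and 0.07 in Region 1 and of 0.07 and 0.03 in Region 2). Without the adjustment, p was under 0.05 for 2 genes of the first list in Region 1 and 1 in Region 2, and for 2 genes of the second in Region 1 and 3 in Region 2. Of 17 measured GATA factors and cofactors, *gata5* (log2 -0.55, limma adjusted p = 0.0313) and *lmo4b* (log2 -0.88, limma adjusted p = 0.0163) fell in Region 2 and 0 were called in Region 1 (6 above 0 and 3 below 0 without the adjustment), with list medians of 0.06 in Region 1 and -0.02 in Region 2. Of 15 measured genes of the lateral mesoderm and the *drl* cluster, *osr1* fell in Region 1 (log2 -1.15, limma adjusted p = 0.0105), and *osr1*, *hand2* and *vox* fell in Region 2 (log2 -2.31, -0.74 and -0.53), with list medians of 0.11 in Region 1 and -0.07 in Region 2. Without each of the 6 arrays in turn, the calls of *gata5*, *lmo4b*, *hand2* and *vox* in Region 2 were lost, that of *osr1* was lost in Region 2 only without control replicate 3 (limma adjusted p = 0.0513) and held in Region 1 only without transgenic replicate 2. In no list of the 7 was a gene called higher.

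Marker lists of other tissues in the pieces held genes called with the transgene, some of them counted above in the related lists. The mean level of 10 yolk syncytial layer genes was 6.17 to 6.21 in Region 1 transgenic arrays and 6.26 to 6.31 in Region 1 controls, and 6.08 to 6.16 in Region 2 transgenic arrays and 6.38 to 6.39 in Region 2 controls, with 1 of the 10, *mxtx1*, called lower in each region. *mxtx1* encodes a homeobox factor of that layer, which lies under the embryo on the yolk. For 7 heart field genes it was 5.33 to 5.45 in Region 1 transgenic arrays and 5.65 to 5.77 in Region 1 controls, and 4.64 to 4.71 in Region 2 transgenic arrays and 4.79 to 4.86 in Region 2 controls, with 1 gene called lower in Region 1 (*nkx2.7*) and 2 in Region 2 (*gata5* and *hand2*, counted above). For 5 pronephros genes it was 7.06 to 7.18 in Region 1 transgenic arrays and 7.46 to 7.50 in Region 1 controls, and 5.99 to 6.07 in Region 2 transgenic arrays and 6.46 to 6.54 in Region 2 controls, with 1 gene called lower in each region, *osr1*, also counted above. All of these ranges were lower on the transgenic arrays and did not overlap with those of the controls. Single genes weigh on such means, as *osr1* with -2.31 in Region 2. The median differences in Region 1 and Region 2 were -0.14 and -0.15 for the yolk syncytial layer list. They were -0.16 and -0.05 for the heart field list, and -0.22 and -0.16 for the pronephros list. The 10 members themselves averaged 4.00 to 4.09 in Region 1 transgenic arrays and 3.97 to 4.05 in Region 1 controls, and 4.28 to 4.32 in Region 2 transgenic arrays and 4.45 to 4.58 in Region 2 controls. The means of 8 enveloping layer and epidermis genes and of 6 neural plate genes were lower on the transgenic arrays of both regions as well, with no call among the enveloping layer and epidermis genes. Of the neural plate genes 1 was called lower in Region 1, while 2 were called lower (*pax6a* and *otx2b*) and 1 higher (*sox3*) in Region 2. Of 9 measured somite genes 1 was called lower in Region 1 and 3 in Region 2, and of 9 tailbud genes 3 were called higher in Region 1 and 0 in Region 2. The part of these tissues in the results of the members was not tested.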

How the data were processed

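RNA of 12 pools was measured on the Affymetrix Zebrafish Gene ST array. The deposited log2 values, made by the authors with Affymetrix Expression Console, were used unchanged; their summarization and normalization are not given in the sources used here. Array number, 3 per group, limits the precision, and an exact permutation test of 3 against 3 arrays cannot go below p = 0.1. The methods call the replicates biological.

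Gene symbols came from the platform annotation and were brought up to date with RefSeq gene tables. Where a gene had several probe sets, that of highest mean over the 12 arrays stood for it. Transgenic and control were compared with limma 3.58.1 in R 4.3.3 (lmFit, eBayes, two-sided), on the 6 arrays of each region; the other contrasts used all 12 arrays and 4 group means. Adjustment (Benjamini-Hochberg) ran over 75212 probe sets, and a call needed an adjusted p under 0.05 with no fold minimum. limma takes the place of the one-way ANOVA of the methods, which was run as an alternative. The fit was run on simulated data as a check of the code. What it recovers of changes as small as those of the members is not given here.

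Named genes were all members, the transgene, the genes of each list with the smallest adjusted p and the 3 genes most like each of 4 members; *drll.3* was added for its closeness to *drl*. The members and lists (7 of related genes, 8 of markers, the members among them) were chosen with earlier results of these data known, and hold genes the paper picked from these arrays, such as *etv2*. The paper also gives PCR primers for *tal1* and *osr1*. Sequences were not used here.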

Additional observations from a re-analysis of the deposited data

Results flagged for a closer look

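Of the members, the transgene and the genes of the 7 related lists, 5 genes had an effect of the transgene that differed between the regions by the limma interaction test (adjusted over all probe sets, effect in Region 1 minus effect in Region 2), where 144 probe sets in all, or 0.191%, passed. Of the marker lists *myf5*, *tbx16* and *otx2b* passed too, and so did 1 yolk syncytial layer gene that is not named here. For *drl* the difference was 1.36 on the log2 scale, with the transgenic arrays above the controls in Region 1 and below them in Region 2. For *lmo2* it was 0.61, with means on the same sides as those of *drl*. For *etv2* it was 0.92 (limma adjusted p = 0.0462), with the larger fall in Region 2, and the transgenic means were 4.15 in Region 1 and 4.14 in Region 2. For *osr1* it was 1.16 (limma adjusted p = 0.028), with a fall in both regions. For *dmrt2a* it was -1.04 (limma adjusted p = 0.000825), with the larger difference in Region 2. Without single arrays the call held in 12 of 12 fits for *dmrt2a*, 4 for *drl*, 3 for *osr1*, 1 for *etv2* and 0 for *lmo2* (limma adjusted p = 0.0667 to 0.109). Of the other 9 members, *gfi1aa* came nearest to the threshold, and its difference between regions passed when only the brighter probe sets were tested (limma adjusted p = 0.0402).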

How the results depend on the processing

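In Region 1, where no member was called, *cebpa* alone was called (1 gene) with a trend and robust spread, with all 12 arrays in 1 fit and with only the brighter probe sets, and *cebpa* with *gata1a* (2 genes) with only probe sets of 1 symbol, before or after the symbol update (the first chosen after seeing the data, and leaving out *drl*). In Region 2, in place of 2 genes, 3 were called, *gfi1aa* added, with a trend and robust spread, with all 12 arrays in 1 fit, with only the brighter probe sets, with only probe sets of 1 symbol after the update and without repeated rows (limma adjusted p = 0.0016 to 0.0374 for *gfi1aa*); with only probe sets of 1 symbol before the update, which leaves out *drl*, *cebpa* and *gfi1aa* were called; the ANOVA called 1, *cebpa*; centring each array called 1, *cebpa* (limma adjusted p = 0.0505 for *drl*); and 0 were called past a fold of 2, with the replicate block and without each array in turn (0 to 0). The difference between regions gave 2 genes, *drl* and *gfi1aa*, with only the brighter probe sets and with only probe sets of 1 symbol, 0 with the replicate block, 0 with the block within genotype and 0 to 1 without each array. In control and in transgenic pieces the 5 genes that differed between regions became 1, *drl*, past a fold of 2. The methods made a separate pool of each region for each condition and replicate, but the labels tie no number to a shared dissection. Arrays of the same number deviated with correlations of -0.055 to 0.079. For 1 genotype in the 2 regions these were 0.017 to 0.079, all above 0, against -0.0765 to 0.0281 for other numbers. The main fits did not pair the arrays. Correlations this small cannot settle whether the 2 regions of a number shared embryos. With the 2 regions of each genotype and number as a block, added after seeing the data, the 5 genes called between regions stayed 5 in each genotype, and for the effect of the transgene between regions 23 probe sets were called; *drl* (limma adjusted p = 0.219), *lmo2*, *etv2*, *osr1* and *dmrt2a* were not called. The common block called 0 probe sets in Region 1 and 0 in Region 2, where the fit without it called 381 and 352, and 54 in place of 144 for the difference between regions. Over all probe sets, counts ran from 0 to 1181 in Region 1, 0 to 1300 in Region 2 and 23 to 423 for the difference. Without single arrays they ran from 30 to 46 in Region 1, 16 to 78 in Region 2 and 41 to 71 for the difference. Directions turned for these values: in control pieces, Region 1 minus Region 2, *cebpa* was -0.14 with centring and *hemgn* -0.0652 with quantile normalization and -0.081 with centring, and in transgenic pieces *gata1a* was 0.61 on its probe set of lowest adjusted p. Without single arrays, signs also turned for uncalled values: in Region 1 for *spi1b* (-0.0899 to 0.0268), *hemgn* (-0.018 to 0.28), *runx1* (-0.0672 to 0.13) and *cbfb* (-0.16 to 0.0349), in Region 2 for *spi1b* (-0.12 to 0.0081), *hemgn* (-0.0493 to 0.0228), *gfi1b* (-0.24 to 0.0029) and *alas2* (-0.0738 to 0.15), for the difference between regions for *spi1b* (-0.0544 to 0.0819), *hemgn* (-0.0088 to 0.29), *runx1* (-0.14 to 0.0589) and *gfi1b* (-0.17 to 0.0793), and in control pieces for *cebpa* (-0.0012 to 0.0795). Spot background was not used, so dim probe sets give no bound.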
